A study of Mus musculus with 28 samples.

Results

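The 200 features described here were those whose deposited counts stood highest in plasma cells of wild-type mice relative to 2 other splenic B lineage subsets. They were taken from 40303 features measured in 28 bulk RNA-seq libraries of flow-sorted spleen cells, all from female mice. Levels are given as CPM, each count scaled to a library total of 1000000 counts. Mean CPM was taken over the wild-type (WT) libraries of each subset: B220- CD138+ long-lived plasma cells (LLPC, 6 libraries), CD11c+ age-associated B cells (ABC, 4 libraries) and CD23+ B cells (6 libraries). A feature was kept with a plasma cell mean of 10 to 4000 CPM and a mean in CD23+ cells of Xist conditional knockout (cKO) mice with high dsDNA under 2 times that of WT. It was then scored by (plasma cell mean + 1) divided by (the higher of the other 2 means + 1). Of 7754 features scored, the 200 highest were taken. The members were thus chosen by WT means and by the CD23+ cKO mean with high dsDNA, and these values are given below as a description, with no test.

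WT mice had low dsDNA, the label that marks animals without the lupus-like disease. Xist cKO mice, in which Xist was deleted in B cells, came with high dsDNA and disease (3 libraries in each subset) or, for CD23+ cells only, with low dsDNA and no disease (3 libraries). Plasma cells and age-associated B cells of cKO mice with low dsDNA were not analysed here, so in these subsets genotype and disease state change together and cannot be told apart. The sources used here give neither the driver of the deletion nor the ages of the mice, and the labels call the libraries biological replicates. Library totals ran from 2133489 counts (an age-associated B cell library of a cKO mouse) to 23866710, and from 4651060 to 10599602 in plasma cells. In bulk libraries, fewer cells of a type and less RNA per cell cannot be told apart.

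Plasma cells are the terminally differentiated, antibody-secreting cells of the B lineage. On becoming one, a B cell shuts down much of its surface-receptor and antigen-presentation programme and expands its secretory machinery, and immunoglobulin transcripts become a large part of its RNA. CD138 is the surface proteoglycan used to sort them, CD23 marks mostly follicular B cells, and CD11c marks the age-associated B cells that accumulate with age and in lupus models. Xist, a long noncoding RNA, spreads over the inactive X chromosome in female cells and keeps it silent. The files name features only by identifiers with the prefix MGP_BALBcJ_G, and 0 of the 40303 identifiers matched the gene tables used here. No member is therefore given a gene name, a role, a position or a sequence, and neither the sorted cell types nor the targeted gene could be checked against their markers. Members are called by their rank in the score, and the identifiers of only 4 are printed. Without feature lengths, levels are compared between libraries and not between features.

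The score fell from 234.5 for the first member to 6.75 for the last, with a median of 14.4. The last 3 members, ranks 198 to 200, had scores of 6.96, 6.82 and 6.75, with plasma cell WT means of 25.7, 74.3 and 18.05 CPM. The next 3 features, just outside, had scores of 6.73, 6.72 and 6.62 and plasma cell WT means of 13.4, 93.9 and 17.97 CPM, so the list ends on a slope and not at a gap. Another 6 features with scores high enough for the list were left out for means above 4000 CPM, and 15 for the limit on CD23+ cKO cells. Across the 200 members the plasma cell WT mean ranged from 10.1 to 3162 CPM with a median of 51.3, against medians of 2.03 CPM in WT age-associated B cells and 0.912 CPM in WT CD23+ cells. All 6 WT plasma cell libraries lay above every other WT library for 156 of the 200 members, against 8.14% of the 7859 features with a plasma cell WT mean of at least 10 CPM. The choice of members used these values, so nothing is read from that count.

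The members fell into 3 groups, drawn after the values had been seen and used only to order the description. The first holds the 74 members (37% of the list) whose identifier number is 250 or lower, called the low-number members here. The second holds the 50 members (25%) with higher numbers whose level in WT plasma cell replicate 6 was at least 4 times that in replicate 4 on the CPM + 1 scale, called the co-varying members. The remaining 76 (38%) are called the steady members. The low-number members filled 17 of the 20 highest ranks, against 2 for the steady and 1 for the co-varying members.

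The groups differ in spread, which follows largely from how the last 2 were drawn and is given as a description of WT values that the choice also used. In WT plasma cells the low-number members had a median coefficient of variation over the 6 libraries of 0.508, the steady members 0.306 and the co-varying members 1.28. All 6 WT plasma cell libraries stood above every other WT library for 70 of 74 low-number and 76 of 76 steady members, but for only 10 of 50 co-varying members. The ratio of the highest to the lowest of the 9 plasma cell libraries had a median of 2.77 for the steady, 5.37 for the low-number and 152 for the co-varying members, the last without 4 members that were at 0 in a library.

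**Figure D1:**
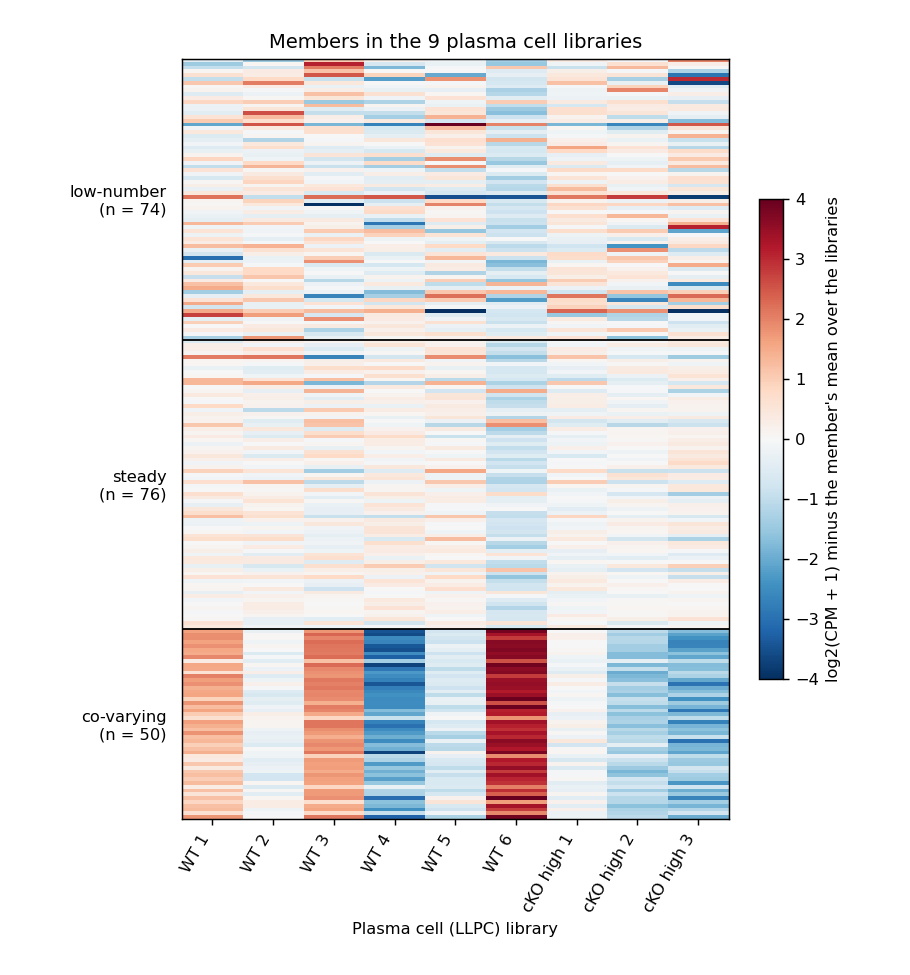
Level of each of the 200 members (rows, grouped) in the 9 plasma cell libraries (columns), as log2(CPM + 1) minus the member's mean over those libraries. The co-varying rows are high in WT replicate 6 and low in WT replicate 4 together, while most steady rows change little.

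The members as a whole took 4.95% ± 1.01 (SD, n = 6) of the counts in WT plasma cells and 5.60% ± 0.4933 (SD, n = 3) in plasma cells of cKO mice with high dsDNA. Their share was 0.238% ± 0.0904 (SD, n = 4) in WT and 0.249% ± 0.0348 (SD, n = 3) in cKO age-associated B cells. In CD23+ cells it was 0.116% ± 0.0082 (SD, n = 6) in WT, 0.121% ± 0.0192 (SD, n = 3) in cKO mice with low dsDNA and 0.114% ± 0.0086 (SD, n = 3) in those with high dsDNA. The order of subsets thus held in cKO mice, which did not enter the score of plasma cells against age-associated B cells. The low-number members made up 60.9% to 79.8% of the members' summed level in the single plasma cell libraries.

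**Figure D2:**
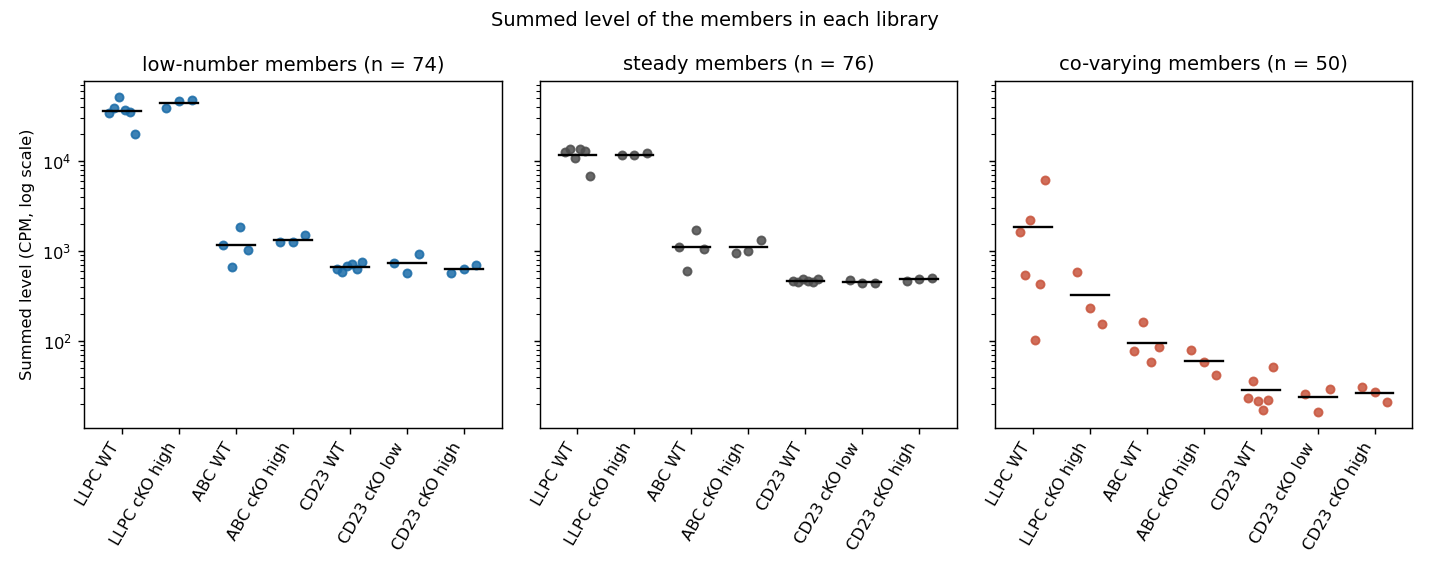
Summed CPM (log scale) of the 74 low-number, 76 steady and 50 co-varying members in each library of the 7 groups, with bars at the group means. Plasma cell libraries stand apart for the low-number and steady sums, whereas the co-varying sum in WT plasma cells runs from 102.6 to 6127.5 CPM and its lowest library lies among those of age-associated B cells.

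The low-number members were concentrated in a narrow stretch of identifier numbers. Of the 40303 features in the tables, 222 (0.551%) have a number of 250 or lower, and 97 of these reached 10 CPM in WT plasma cells. All 97 had their highest WT mean in plasma cells, as did 1917 of the 7859 features of any number that reached that level. The 74 members among them carry numbers from 4 to 243, and 63 lie between 50 and 150, a stretch that holds 99 features in the tables. The next member has the number 1616. Lists of 200 features made by the same score for CD23+ cells and for age-associated B cells held 1 and 0 features with a number of 250 or lower. What the number encodes is not stated in the files. Of the 23 low-number features that reached 10 CPM and are no members, 6 were above 4000 CPM, 3 failed the limit on CD23+ cKO cells and 14 scored below the list.

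The first member, MGP_BALBcJ_G0000101, had 1236, 607, 3376, 1895, 1439.97 and 657 CPM in WT plasma cell replicates 1 to 6, and 2106, 1628 and 6598 CPM in cKO replicates 1 to 3. Its values in WT age-associated B cells were 2.66, 2.17, 10.1 and 7.31 CPM, and those in the cKO libraries 0.22, 21.6 and 0.381 CPM. Every plasma cell library lay far above every library of the other subsets, and cKO replicate 2 held most of the counts among the cKO age-associated B cells. The second member, MGP_BALBcJ_G0000140, had 430.05, 1214, 9757, 721, 952 and 404 CPM in the WT plasma cell replicates, so that replicate 3 alone held 72.4% of the WT sum. Its cKO plasma cell libraries had 1030.2, 1772 and 1380.2 CPM, inside the WT range. In cKO age-associated B cells it had 22.6, 35.2 and 17.9 CPM.

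Single libraries also stood out for other low-number members. WT replicate 3 had the highest WT value for rank 3 (277 CPM against 18.4 to 142 CPM in the other 5), rank 4 (1739 against 553 to 992 CPM), rank 5 (813 against 35.4 to 271 CPM) and rank 10 (1089 against 215 to 722 CPM). WT replicate 5 was highest for rank 6 (623 against 37.7 to 309 CPM) and rank 121 (54.1 against 0.887 to 15.1 CPM). Rank 7 ran from 23.8 to 167 CPM in WT and from 2.36 to 91.7 CPM in cKO plasma cells. The libraries that stood out differed from member to member. Rank 9 had 2889, 2439, 3101, 2130.4, 2073 and 1062 CPM in WT plasma cells and 2269.65, 10028 and 2343 CPM in cKO plasma cells, where replicate 2 stood above all others. Rank 55 had 714, 734, 945, 312, 945 and 304 CPM in WT and 778, 538 and 6872 CPM in cKO plasma cells, where replicate 3 did. By contrast, rank 8 (618 to 1119 CPM in WT, 665 to 1627 CPM in cKO), rank 48 (1363 to 3471 and 1521 to 3265 CPM) and rank 69 (1917 to 4385 and 2373 to 3819 CPM) kept within a narrow range. In all, 22 of the 200 members had 1 plasma cell library of the 9 with at least 3 times the CPM of the next. They comprise 5 low-number, 17 co-varying and 0 steady members. The split between co-varying and steady members follows in part from how these groups were drawn. The share of all features with such a library was not counted.

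**Figure D3:**
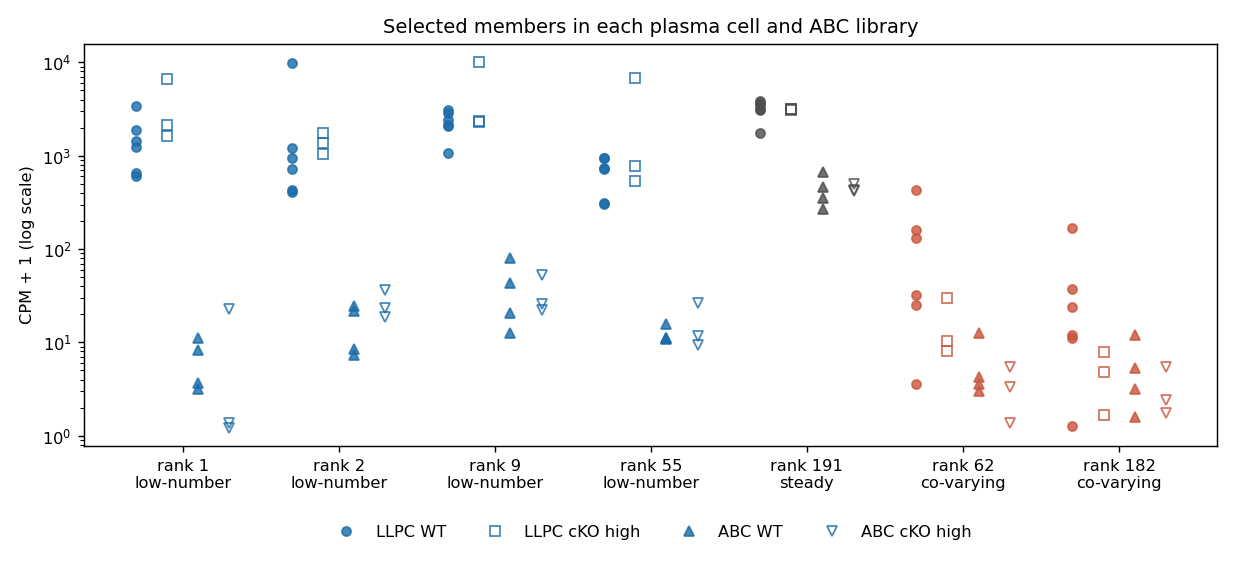
CPM + 1 (log scale) of the members of ranks 1, 2, 9, 55, 191, 62 and 182 in each plasma cell and age-associated B cell library. Ranks 1, 2, 9 and 55 each have 1 plasma cell library above the rest, rank 191 is level apart from a lower WT plasma cell replicate 6, and ranks 62 and 182 span a wide range in plasma cells that reaches down to the age-associated B cells.

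The steady members are by construction those without the large difference between WT replicates 6 and 4. Rank 191, which had the highest WT plasma cell mean of the list, had 3127, 3826, 3083, 3715, 3450.35 and 1770.3 CPM in WT plasma cells and 3172, 3189.94 and 3078 CPM in cKO plasma cells. It had 461, 266, 672 and 348 CPM in WT age-associated B cells, 417, 424 and 500.4 CPM in those of cKO mice, and 114 to 132 CPM in WT CD23+ cells. The levels of rank 191 thus ordered plasma cells above age-associated B cells above CD23+ cells with no overlap between subsets. The summed level of the steady members was 10769 to 13665 CPM in WT plasma cell replicates 1 to 5 and 6723 CPM in replicate 6, against 11531 to 12145 CPM in cKO plasma cells. WT replicate 6 was the lowest WT plasma cell library for 54 of the 76 steady and 39 of the 74 low-number members. It was so for 0 of the 50 co-varying members, and for 93 of all 200. Setting the co-varying members apart raises the share among the steady ones. The share over all features was not counted.

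The co-varying members changed together over the plasma cell libraries. Their summed level in WT replicates 1 to 6 was 1630.4, 545, 2219, 102.6, 424 and 6128 CPM, and that in cKO replicates 1 to 3 was 580.2, 230.5 and 153 CPM. WT replicates 6 and 4 differ by the way the group was drawn, but the other libraries did not enter that step. The WT replicates followed the order 6, 3, 1, 2, 5, 4 from highest to lowest in 39 of the 50 members. Both ends of this order are favoured by the way the group was drawn. The order was not counted for features outside the list, so it is not shown to be particular to these members. As a percentage of the level in WT replicate 6, the median over the 50 members was 36.8% in replicate 3, 25.6% in replicate 1, 8.25% in replicate 2, 5.68% in replicate 5 and 0.632% in replicate 4. In the cKO libraries it was 8.79%, 3.02% and 1.79%, within the range of the WT libraries. In WT replicate 4 these features were therefore near the level of the other subsets: the summed level of 102.6 CPM compares with 58.8 to 161 CPM in WT age-associated B cells and a mean of 28.4 CPM in WT CD23+ cells.

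**Figure D4:**
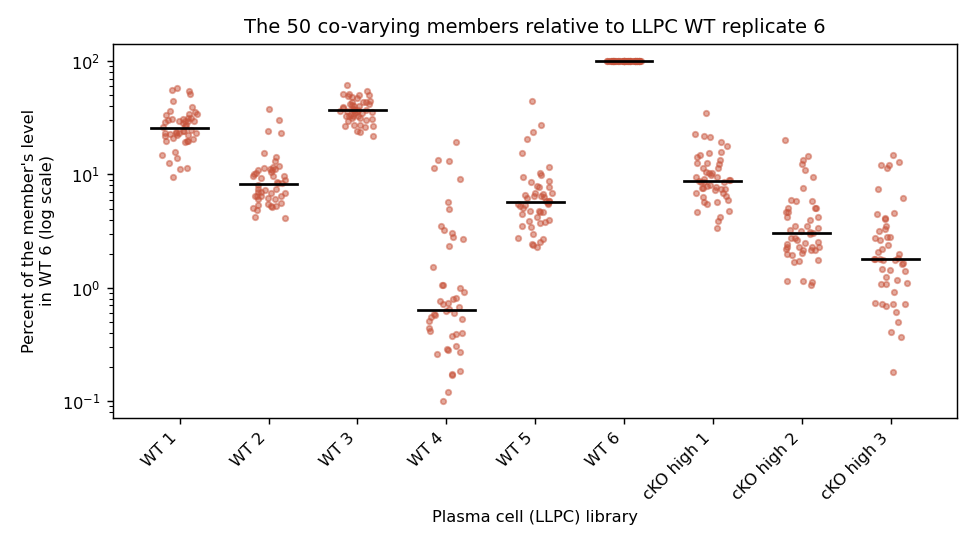
Level of each of the 50 co-varying members in the 9 plasma cell libraries as a percentage of its level in WT replicate 6 (log scale, values of 0 not drawn), with the median as a black line. The medians of the libraries other than WT replicate 6 run from 36.8% in WT replicate 3 down to 0.632% in WT replicate 4.

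MGP_BALBcJ_G0028672 (rank 62) is the co-varying member with the highest WT mean. It had 130.1, 31.2, 160.3, 2.55, 23.99 and 429.9 CPM in WT and 29.2, 9.33 and 7.09 CPM in cKO plasma cells. MGP_BALBcJ_G0028236 (rank 182) had 22.9, 10.1, 36.0, 0.283, 10.9 and 166 CPM in WT and 6.91, 3.77 and 0.675 CPM in cKO plasma cells. For both, WT replicate 6 alone held more than the other 5 WT libraries together (55.3% and 67.4% of the WT sum). Ranks 74, 100, 104, 157 and 199 had the same shape, with 384, 93.1, 109, 47.6 and 274 CPM in WT replicate 6 and 1.04, 0.0943, 0.283, 0.472 and 1.04 CPM in replicate 4. The excess of WT replicate 6 over replicate 4 was not limited to the list. Of the 7859 features that reached 10 CPM in WT plasma cells, 829 (10.5%) met the same rule of at least 4 times. The opposite difference was found for 9. The rule used plain library totals. TMM factors over all 28 libraries were 0.818, 0.682, 0.745, 0.598, 0.669 and 1.055 for WT plasma cell replicates 1 to 6. For cKO plasma cell replicates 1 to 3 they were 0.677, 0.632 and 0.587. Apart from the places of WT replicates 3 and 1, these factors rank the WT libraries as most co-varying members do. How far the shape goes with these factors was not tested. Scaling by these factors lowers replicate 6 relative to replicate 4, and the 829 were not recounted on that scale. Of the 829, 774 are no members, with median WT means of 27.4 CPM in plasma cells, 26.2 CPM in age-associated B cells and 21.9 CPM in CD23+ cells. Among the members the rule was met by 55 (27.5%), 5 of them low-number members. By the way the score is built, features with the shape could enter the list only if low in the other 2 subsets relative to plasma cells. The part of depth, RNA quality or cells of another type in the shape was not tested, since no marker could be named. In WT plasma cells, the 200 features highest in CD23+ cells summed to 3125 CPM in replicate 6 and 3900 CPM in replicate 1. Their median level was 6.03 CPM in replicate 6, 6.98 CPM in replicate 1 and 3.49 to 4.18 CPM in replicates 2 to 5. The 200 highest in age-associated B cells summed to 3404 CPM in replicate 6 and 3947 CPM in replicate 1. These lists cover only 2 subsets and are given as a description.

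Whether the members stood above the other subsets in libraries that did not choose them was compared first between plasma cells and age-associated B cells of cKO mice with high dsDNA (3 libraries each, from the same 3 animals by the numbers in the table names). The CD23+ libraries of these 3 animals entered the choice through its upper limit. Plasma cells were higher for 167 of the 200 members and lower for 0, by edgeR's quasi-likelihood test at a Benjamini-Hochberg adjusted p of 0.05 over all features tested. Across the 11594 features tested, 26.5% were called higher in plasma cells and 24.8% lower. By group, 65 of 74 low-number, 76 of 76 steady and 26 of 50 co-varying members were called. Another 8 members were tested and not called, and 25, of which 23 are co-varying, had counts too low in these 6 libraries to be tested. The tested members had a median log2 difference of 5.70, against -0.02 over all features tested, but a member that passed the count filter did so mainly through its plasma cell counts. Without regard to the filter, every cKO plasma cell library lay above every cKO age-associated B cell library for 179 of the 200 members (71 low-number, 75 steady and 33 co-varying). Of the features tested, 9.98% did so, 162 of them members, and 70.9% lay the other way. These shares are on plain library totals, on which the median log2 difference of all features was -0.99 in place of -0.02.

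The steady member of rank 191 was 3.80 log2 units higher in cKO plasma cells (SE 0.156, adjusted p 8.74e-09 by edgeR's quasi-likelihood test), a mean of 3147 against 447 CPM. The second member was 6.83 log2 units higher (SE 0.353, adjusted p 1.84e-06 by edgeR's quasi-likelihood test). For the first member the difference was 10.64 log2 units with an SE of 2.04, as its 3 age-associated B cell values ran from 0.22 to 21.6 CPM (edgeR adjusted p 0.0135). That call was lost without cKO age-associated B cell replicate 3 (edgeR adjusted p 0.054) and with the animal as a block (10.71 log2 units, edgeR adjusted p 0.062), and the difference ran from 9.66 to 14.48 with 1 library left out. Rank 9 was 8.19 log2 units higher (SE 1.09, edgeR adjusted p 0.00328). Rank 55 was 8.56 log2 units higher (SE 1.78, edgeR adjusted p 0.0173), and without any 1 of the age-associated B cell libraries its edgeR adjusted p was 0.0585 to 0.0733 at log2 differences of 8.21 to 9.26. Without cKO plasma cell replicate 3 the difference was 6.38 log2 units (edgeR adjusted p 0.00147). Of the co-varying members, rank 62 was 3.47 log2 units higher (SE 0.821, edgeR adjusted p 0.014), a call lost without cKO age-associated B cell replicate 2 (3.44 log2 units, edgeR adjusted p 0.0535). Rank 182 did not pass the test (log2 difference 1.54, SE 0.784, edgeR adjusted p 0.134), though it did with the animal as a block (1.60, edgeR adjusted p 0.0255). With 1 library left out the difference of rank 182 ran from 0.85 (without cKO plasma cell replicate 1) to 2.83 (without cKO age-associated B cell replicate 1).

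**Figure D5:**
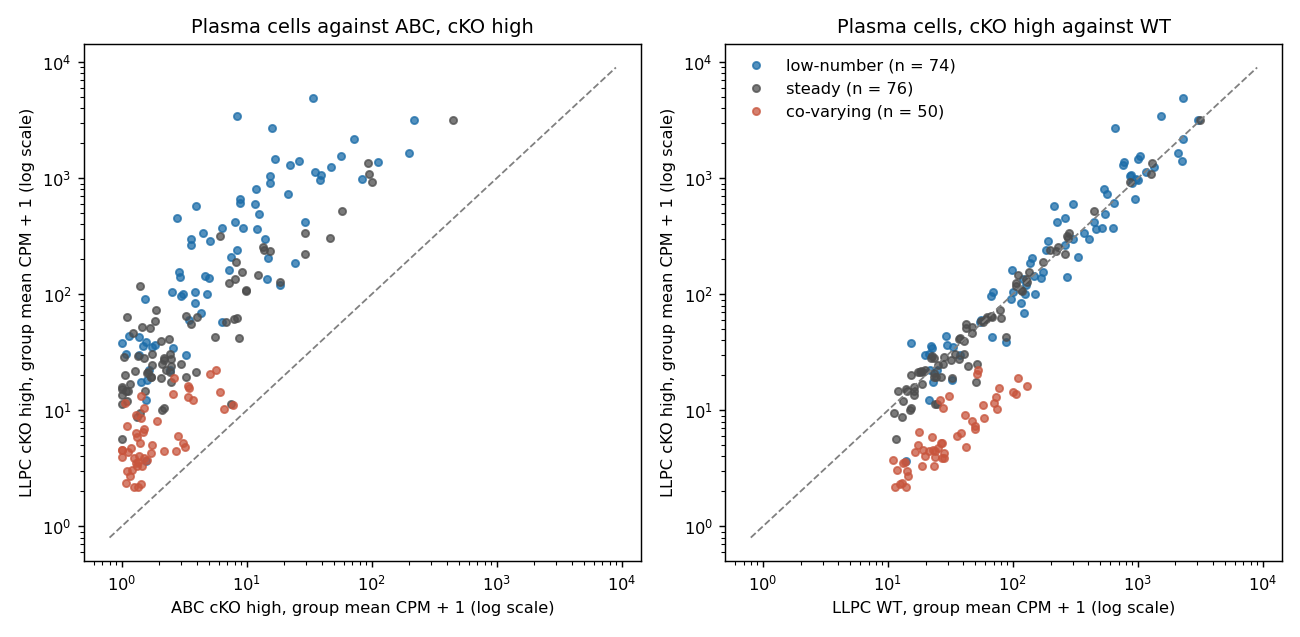
Mean CPM + 1 (log axes) of each member in cKO plasma cells against cKO age-associated B cells (left) and against WT plasma cells (right), coloured by group, with a dashed line at equal values. On the left most members lie above the line, and on the right the low-number and steady members lie around it while all 50 co-varying members lie on the WT side.

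Against CD23+ cells of cKO mice with low dsDNA, which differ in disease state as well as in subset, cKO plasma cells were higher for 174 of the 200 members and lower for 0 (edgeR, same threshold). Among the 11849 features tested here, 30.3% were called higher and 28.6% lower. The 174 comprise 72 low-number, 76 steady and 26 co-varying members, and 23 members had counts too low to be tested. Without regard to the filter, every cKO plasma cell library lay above every CD23+ library of these mice for 188 of the 200 members. Of the features tested, 14.9% did so, 172 of them members, and 67.3% lay the other way. On the plain library totals used for these shares, the median log2 difference of all features was -0.98 in place of -0.02. Both comparisons use the same 3 cKO plasma cell libraries, so their counts are not independent.

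The other 2 subsets were compared in the same way. In cKO mice, age-associated B cells with high dsDNA were higher than CD23+ cells with low dsDNA for 34 of the 200 members (17%) and lower for 2 (edgeR, adjusted p of 0.05), against 18.9% and 13.8% of the 12229 features tested. As shares of the 103 members tested these are 33% and 1.94%, but many of the members are near 0 in CD23+ cells, and such a member could pass the count filter only through its age-associated B cell counts. A further 67 members were tested and not called, and 97 had counts too low to be tested. The 34 comprise 22 steady, 7 low-number and 5 co-varying members. Rank 191 was 2.03 log2 units higher in age-associated B cells (SE 0.113, adjusted p 1.11e-07 by edgeR's quasi-likelihood test), and rank 117, chosen after its values were seen, had 99.1 against 9.58 CPM (log2 difference 3.38, SE 0.204, edgeR adjusted p 3.96e-07). The 2 that fell, ranks 142 and 169, both steady and named after their values were seen, had log2 differences of -0.40 (SE 0.143, edgeR adjusted p 0.048) and -1.68 (SE 0.465, edgeR adjusted p 0.0153).

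Within the age-associated B cell libraries the members' sums moved together and apart from the co-varying ones. WT replicate 3 had the highest low-number sum (1835 CPM) and steady sum (1708 CPM) of the 7 libraries but, among the WT libraries, the lowest co-varying sum (58.8 CPM). WT replicate 2 had the lowest low-number (663 CPM) and steady (600.3 CPM) sums of the 7 and the highest co-varying sum (161 CPM). The animal that was highest for a member in plasma cells was also highest in age-associated B cells for 17 of 63 low-number members (26.98%), 19 of 63 steady members (30.2%) and 5 of 42 co-varying members (11.9%), counted over the 7 animals with both subsets and members with at least 20 counts in age-associated B cells. Of the 7823 features that met the same minimum and reached 10 CPM in WT plasma cells, 14.7% did so. WT replicate 3 alone was the highest age-associated B cell library for 20 of the 63 low-number and 29 of the 63 steady members. It was the highest for 636 of the 7823 features. WT replicate 2 was the highest for 2061 of these features, for 0 low-number, 2 steady and 24 of the 42 co-varying members. Rank 24, a low-number member named after its values were seen, had 256, 15.9 and 63.8 CPM in cKO age-associated B cells against 10.6 to 18.1 CPM in WT, with 838, 967 and 2329 CPM in cKO and 488 to 1015 CPM in WT plasma cells. For rank 24, the animal highest in the one subset was not the highest in the other.

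Plasma cells of cKO mice with high dsDNA were compared with WT plasma cells to ask how the members differ with genotype and disease. Because the members were chosen for high WT plasma cell means, the choice favours lower values in cKO. All 200 members were tested, and 0 were called in either direction by edgeR's quasi-likelihood test. Over all 11739 features 0 were called higher and 1, or 0.00852%, lower, which is no member. The smallest edgeR adjusted p among the members was 0.75, and 20 members and 540 features of all had an unadjusted p under 0.05. DESeq2 also called 0 members. In simulated data for this comparison, edgeR called 26% of the features changed 2-fold, so differences of that size could be missed. The median log2 difference was 0.18 for the low-number and 0.17 for the steady members, against -0.02 over all features tested. For the co-varying members it was -2.23, with a range of -2.97 to -0.82.

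The ratio of the cKO to the WT plasma cell mean, on the CPM + 1 scale, ran from 0.114 to 4.14 over the members. Its median was 1.02 for the low-number, 0.995 for the steady and 0.190 for the co-varying members. All 50 co-varying members were under 0.5. They were drawn by a high level in WT replicate 6, which enters the WT mean, so low ratios were favoured. The share of all features with a ratio under 0.5 was not counted. The lower cKO mean of the co-varying members rested in part on WT replicate 6. Without it the median ratio of the co-varying members was 0.340, with 43 of 50 under 0.5. The ratio of their summed levels moved from 0.175 to 0.326. Without replicate 6 the summed level was 984 ± 898 CPM (SD) in WT, against 321 ± 227 CPM (SD) in cKO. The co-varying members change together, so the number under 0.5 does not count independent observations. The members with the largest differences did not pass the test. Rank 55 had a log2 difference of 2.31 (SE 0.768, edgeR adjusted p 0.75), which fell to 0.12 without cKO replicate 3, the library with 6872 CPM. Rank 62 had -2.65 (SE 1.18, edgeR adjusted p 0.75) and rank 182 had -2.94 (SE 1.32, edgeR adjusted p 0.75). Rank 191 differed by 0.16 (SE 0.373, edgeR adjusted p 0.897). Every cKO library lay below every WT library for 2 members, and above for 0, against 3.08% and 0.349% of all features tested. These 2, the steady members of ranks 173 and 185, had 8.44 to 13.1 against 14.2 to 38.7 CPM, and 58.9 to 64.0 against 68.9 to 89.7 CPM.

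In the other subsets the members are features at low levels, and the choice of members favours higher values in cKO than in WT. In age-associated B cells, 128 members were tested between cKO mice with high dsDNA and WT, and 0 were called by edgeR's quasi-likelihood test, against 0.543% higher and 0.59% lower (1.13% in all) of 12714 features. Every cKO library lay above every WT library for 4 members and below for 6, against 6.17% and 5.7% of the features tested. The smallest edgeR adjusted p was 0.101, 16 members and 1495 features of all had an unadjusted p under 0.05, and DESeq2 called 4 members higher and 3 lower, against 1.67% higher and 1.81% lower of all features. In CD23+ cells, 97 members were tested between cKO mice with low dsDNA and WT, both without disease, and 0 were called by edgeR or DESeq2, against 0 higher and 3 lower (0.024%) of 12506 features by edgeR. An unadjusted p under 0.05 was found for 5 members and 325 features of all. Every library of these cKO mice lay above every WT library for 0 members and below for 2, against 0.576% and 1.08% of the features tested. CD23+ WT replicate 6 stood apart: 199 of the 200 members had at least 1 count there, against 149 to 169 in the other 5 WT libraries, and its co-varying sum was 51.6 CPM against 17.1 to 35.6 CPM. Without that library, 0 members were called as well. The remaining 103 members did not pass the count filter in CD23+ cells, and with no filter 0 of the 200 members were called.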

How the data were processed

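RNA of sorted cells was purified with a QIAGEN micro kit and made into libraries with a Takara SMARTer Pico kit, per the labels' protocols. The tools in the submitters' processing notes are FastQC, STAR 2.7.1a and featureCounts. Build, strand setting and any molecular identifiers were not given in the sources used here, so overlapping features and near-identical copies are uncertain. Each library has 1 deposited table of raw whole-number counts, by feature identifier. No 2 of the replicates had identical tables.

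Members and groups of members were chosen with earlier results of these data known. CPM was computed on plain library totals. Differences were fitted on the counts of the compared groups with edgeR 4.0.16 (R 4.3.3, filterByExpr, TMM, quasi-likelihood test). Benjamini-Hochberg adjustment was over all features tested. Log2 differences came from that fit, and the SE is the absolute log2 difference over the square root of its F statistic. On simulated data for cKO against WT plasma cells, 26% of features changed 2-fold and 86% of those changed 4-fold were called. For cKO plasma cells against cKO age-associated B cells these were 70% and 96%. DESeq2 1.42.0, plain library totals, no count filter, 1 fit over all 28 libraries, a replicate block, libraries left out and other scoring choices were alternatives. P-values weigh a difference between group means against the spread between these libraries.

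The rule for single members took the 10 highest scores, the 5 highest WT plasma cell means, the 5 most concentrated in 1 WT library, and the 5 largest and 5 smallest ratios of cKO to WT plasma cells. Others are said to be named after their values were seen. The 3 libraries of cKO plasma cells and of age-associated B cells with high dsDNA pair by the animal number in the table names. Over 9902 features, their deviations from the group means correlated at 0.0941, 0.0557 and 0.10007 for the same animal and at -0.0723 to -0.0102 for different animals.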

Additional observations from a re-analysis of the deposited data

Results flagged for a closer look

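In groups of 4 to 10 libraries, the gap of the highest or lowest library to its neighbour was compared with the group's range (Dixon's 95% value) in 34 checks of the summed levels and named members. It was exceeded in 13, where chance alone gives about 1 in 20, or 1.7. The checks are not independent: the co-varying members change together and were drawn by their high level in WT plasma cell replicate 6, and several members were named for being concentrated in 1 library.

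In WT plasma cell replicate 6, the high values were the co-varying sum of 6127.5 CPM and the co-varying members of ranks 62 (429.9 CPM), 74 (384 CPM), 199 (274 CPM), 182 (166 CPM), 104 (109 CPM), 100 (93.1 CPM) and 157 (47.6 CPM). The same library was low for the steady member of rank 191, with 1770.3 CPM. WT plasma cell replicate 3 was high for the low-number members of ranks 2 (9757 CPM), 4 (1739 CPM) and 5 (813 CPM). WT plasma cell replicate 5 was high for the low-number member of rank 121, with 54.1 CPM.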

How the results depend on the processing

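Of 185 recomputed counts of members or of shared members, 171 stayed within 1.5 times the value given. Many of the 171 were counts of 0 that stayed 0. That holds for every count of members called lower in cKO plasma cells than in the other 2 subsets. It also holds for every count between cKO and WT plasma cells and between cKO with low dsDNA and WT CD23+ cells. Leaving out 1 library, 162 to 180 members were called higher in cKO plasma cells than in cKO age-associated B cells, and 173 to 189 higher than in CD23+ cells with low dsDNA. With plain library totals the median of all features moved to -0.99 and -0.98 in these comparisons, features called higher and lower became 1078 and 7938 in the first and 1674 and 7693 in the second, and 159 and 173 members were higher. With the replicate block, which here pairs the animals, 169 members were higher in the first. The block on numbers 1 to 3 left 0 members called between cKO and WT plasma cells; there the samples share only a number.

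Between cKO age-associated B cells and CD23+ cells with low dsDNA, 58 of 194 members were higher and 5 lower with no count filter (12.7% and 9.64% of 21572 features), 1 was lower with all 28 libraries in 1 fit, and with 1 library left out 27 to 38 were higher and 1 to 4 lower. Between cKO and WT age-associated B cells, DESeq2 called 4 higher and 3 lower, no filter gave 5 and 4 (1.37% and 1.55% of all features), all 28 libraries in 1 fit gave 2 higher, and with 1 library left out 0 to 3 were higher (3 without WT replicate 3) and 0 to 1 lower (1 without WT replicate 2). Between cKO and WT plasma cells the difference of rank 2 ran from -0.71 (without WT replicate 6) to 1.07 (without WT replicate 3), a reversed sign, with 1 library left out, and that of rank 191 reversed to -0.0069 with plain library totals; neither was called. The cause of these changes was not tested.

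Of the 200 members, 188 were shared with a list scored with a pseudocount of 0.1, 160 with 5, 158 with medians in place of means, 187 with TMM-scaled levels and 162 with a lowest mean of 20 CPM. Without 1 WT plasma cell library, 174 to 196 were shared, fewest without replicate 6, when 25 of the 50 co-varying members were. Depth limits the low side: 3 counts are 1.41 CPM in the shallowest library, close to the median level of members outside plasma cells.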
